A study of Sus scrofa with 22 samples.

Results

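Interferon-stimulated genes were followed in pig taste tissue and in organoids grown from it. The list held 39 genes that interferon is known to induce. They were taken by name, but with earlier results of these data known. Of these, 38 were measured here, of 27376 and 29850 genes in the annotations used. RNF213 was not matched by symbol and is not analysed here, and IFIT5 was found under a locus name through its RefSeq synonym. Levels are in TMM-scaled CPM, that is, the read pairs of a gene relative to all pairs counted in its library, after a scaling that evens out library composition. The 22 libraries came from 6 groups in 3 experiments. In the first, passage 1 organoids of 5 pigs, kept in the growth medium LPM with FGF10 at 100 ng/ml, were compared with foliate papillae, the taste-bud-bearing folds at the side of the tongue, of the same 5 pigs. In the second, 3 organoid cultures in LPM without FGF10 were compared with 3 in LPM with it. In the third, 3 organoid cultures held in LPM to day 10 and then in CQ to day 16 or 17 were compared with 3 kept in LPM throughout.

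LPM also contained EGF, FGF2 at 10 ng/ml, insulin at 10 nM, R-spondin, noggin, SHH, Wnt3a, forskolin, prostaglandin E2 and inhibitors of TGF-beta receptors, p38, GSK3 and ROCK. No interferon or other inducer is named for any group. The composition of CQ and the age of the LPM cultures beside it are not given in the sources used here, so medium and culture age cannot be told apart in that experiment. Papillae were extracted with another RNA kit than organoids and without a DNase step, so kit and tissue cannot be told apart either. Pig age, sex and breed are not given in the labels used here.

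Interferons are secreted proteins that cells release after they sense foreign nucleic acid. They bind receptors on the same or neighbouring cells, where JAK kinases phosphorylate STAT proteins, and STAT proteins with IRF9 then switch on interferon-stimulated genes. The products of these genes sense foreign RNA, cut it or stop its translation, trap virus particles, attach the ubiquitin-like protein ISG15 to other proteins, or switch the signal off again. Epithelia of mucosal surfaces keep many of these genes at a low basal level between infections.

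Library totals were 21.79 to 27.77 M counts in passage 1 organoids and 17.04 to 20.71 M in papillae, 19.64 to 23.45 M without FGF10 and 20.77 to 25.23 M in its LPM libraries, and 14.67 to 16.0 M in CQ and 19.62 to 26.01 M in its LPM libraries. The CQ libraries stood apart. Among genes with a mean of 10 to 30 counts, the median ratio of variance to mean was 12.73 in CQ and 1.75 in LPM, against 1.13 to 4.82 in the other 4 groups, so that a low count in CQ carries less information than its size tells. A group with 0 counts of a gene was therefore read as being under 38.2 counts in CQ, or 0.811 CPM, and under 3 counts over the group elsewhere. Epithelial markers summed to 6190 to 8880 CPM in passage 1 organoids and 8340 to 11200 CPM in papillae. KRT5, at 1690 ± 403 CPM in organoids and 8180 ± 1280 CPM in papillae (SD, n = 5 each), made up most of the papilla sum, and 5 of 7 markers (EPCAM, CDH1, KRT8, KRT18 and ITGB4) were called higher in organoids and 2 (KRT5 and TP63) lower.

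Every member had at least 1 count in every group of the first experiment. The heat map of levels shows which of them stood out in which libraries. Per kilobase of exon, the scale on which genes can be set beside each other, ISG15 was the most abundant member in passage 1 organoids at 59.7 ± 51.3 CPM per kb, followed by IFI35 at 18.2 ± 2.36 and STAT2 at 18 ± 3.84 CPM per kb. In papillae IFI6 led at 62.4 ± 17.8 CPM per kb, with ISG15 at 42.3 ± 20.7 and IRF9 at 23.8 ± 5.95 CPM per kb (SD, n = 5 each). The SD of ISG15 spans the distance to the members below it in organoids, and the ranges of IFI6 and ISG15 overlap in papillae.

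**Figure D1:**
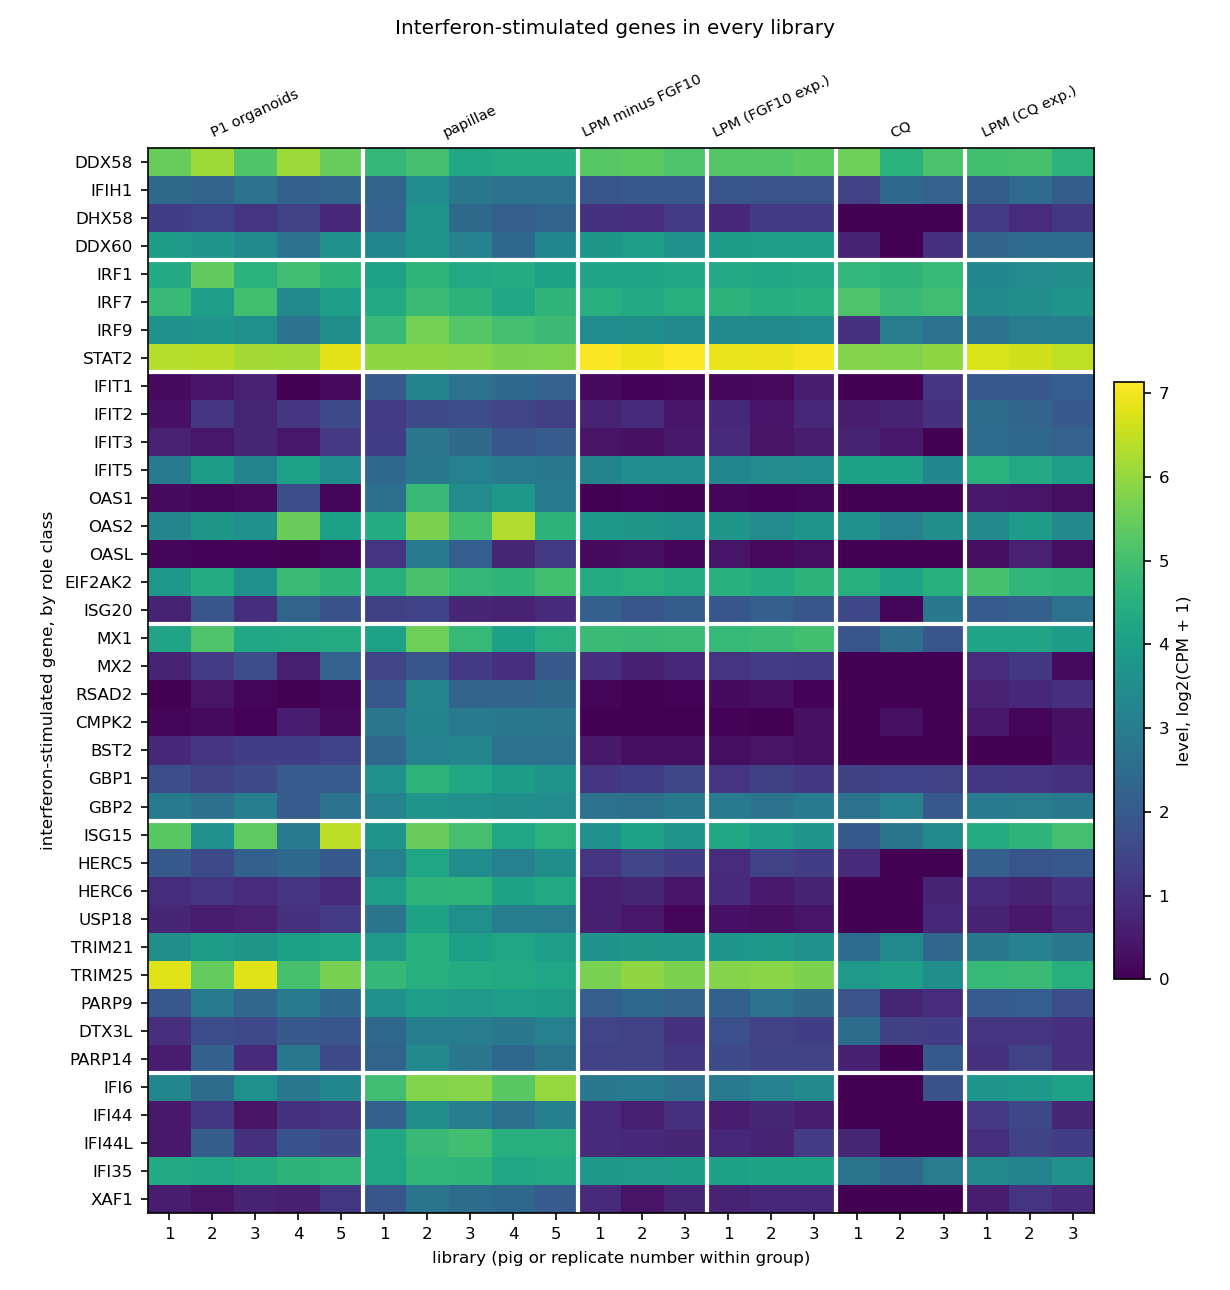
Level of each of 38 interferon-stimulated genes (rows, by role class) in each of 22 libraries (columns, by group, with the pig or replicate number), as log2(CPM + 1) from dark (0) to yellow. Papilla columns are brighter than organoid columns for most effector genes, such as IFI6, IFI44L and HERC6, whereas TRIM25 and DDX58 are brighter in organoids, and the CQ columns are dark for 8 members.

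The comparison of passage 1 organoids with papillae asked how expression differs between organoids and the tissue they were grown from. Of the 38 interferon-stimulated genes tested, 20 fell, 4 rose and 14 were not called in organoids (edgeR quasi-likelihood test, adjusted p under 0.05 over all 16311 genes tested). Of all genes tested, 35.1% were called lower and 32.4% higher, 67.5% in either direction, so that the share of members called is near that of all genes while falls outnumber rises among them. The falls were wide. They ran from 1.85-fold to 48.3-fold, 15 of the 20 exceeded 4-fold, and each was seen in 5 of 5 pigs. The 4 rises, of DDX58, STAT2, IFIT5 and TRIM25, ran from 1.48-fold to 3.28-fold, also in 5 of 5 pigs. The fit did not pair libraries by pig. With pig as a block 23 members were lower and 5 higher, IRF1, OAS2, EIF2AK2 and PARP14 being the added ones. In the fit without the block, the median log2 fold change was -1.30 over the members and -0.01 over all genes tested. With library size in place of TMM the median of all genes shifted to 0.28 and 59.6% of called genes were higher, against 48.0% with TMM, while 20 members were lower and 5 higher, IRF1 being the added one. Organoid and papilla values did not overlap for 20 members that were lower and 3 that were higher, and over all genes tested this held for 29.6% and 24.5%. OASL and RSAD2 passed the filter on low counts through papillae alone and so had to be lower. In all, 10 members passed it in all 5 papilla libraries but not in all organoid libraries, and were tested because of papillae. They were OASL, RSAD2, IFIT1, IFIT3, OAS1, CMPK2, IFI44, IFI44L and XAF1, all called lower, and IFIT2, not called. The filter thus favoured falls among them, many of the widest included. In bulk tissue, fewer cells of a type and less RNA per cell cannot be told apart.

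Of the 4 RNA sensors 1 rose and 1 fell. DDX58, which encodes the cytosolic RNA sensor RIG-I (chromosome 10, 33891720 to 33976151, Sscrofa11.1), was at 43.9, 68.4, 36.0, 67.3 and 43.6 CPM in organoids of pigs 1 to 5, against 25.8, 31.6, 18.1, 20.0 and 20.6 CPM in their papillae. Every organoid value lay above every papilla value. The rise was 2.23-fold (log2 1.16, SE 0.22, adjusted p = 0.000649), and 424 bases of its exons overlap ACO1 on the opposite strand, whose reads cannot be told apart because strand was ignored in counting. DHX58, which encodes LGP2, a relative of RIG-I without its signalling domains, was at 1.46, 1.72, 1.19, 1.67 and 0.723 CPM in organoids, against 3.77, 12.0, 4.56, 3.50 and 3.82 CPM in papillae. It fell 4.08-fold (adjusted p = 0.00104) with no overlap between the groups. The other RNA sensor genes, IFIH1 (MDA5) and DDX60, were not called, at log2 fold changes of -0.57 and 0.34 (adjusted p = 0.0718 and 0.323), and IFIH1 was called lower with DESeq2 and without the papillae of pig 1 (log2 fold change -0.69, adjusted p = 0.0338).

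Among the factors that carry the signal to the nucleus, STAT2 rose and its partner IRF9 fell. STAT2 was at 79.6, 82.3, 71.5, 70.3 and 114 CPM in organoids of pigs 1 to 5, against 60.2, 60.2, 57.2, 52.0 and 53.1 CPM in papillae, 1.48-fold higher (log2 0.56, SE 0.14, adjusted p = 0.00374). The groups did not overlap, and 309 exon bases of STAT2 overlap IL23A on the opposite strand. IRF9 (chromosome 7, 75133800 to 75139641), which binds DNA together with STAT proteins, was at 11.4, 12.5, 11, 5.56 and 10.6 CPM in organoids, against 27.7, 48.9, 36.7, 31.1 and 29.0 CPM in papillae. That is a fall of 3.41-fold (log2 -1.77, SE 0.23, adjusted p = 4.94e-05), again without overlap. IRF1 and IRF7, transcription factors that interferon and infection induce, were not called, at log2 fold changes of 0.50 (adjusted p = 0.0555) and -0.24 (adjusted p = 0.49). With pig as a block IRF1 was called higher (log2 0.46, adjusted p = 0.0154), as it was without the organoids of pig 1, 3 or 5 (adjusted p = 0.0229, 0.0424 and 0.0493) or the papillae of pig 2 (0.0312).

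The genes of the RNA-binding and RNA-cutting effectors include the IFIT and OAS families, and 4 of the 9 fell and 1 rose. On chromosome 14 the 4 IFIT genes follow each other between 101193421 and 101266105, each within 12.2 kb of the next, and they did not move together. IFIT1, which binds foreign RNA by its unmethylated cap, was at 0.163, 0.328, 0.572, 0 and 0.131 CPM in organoids of pigs 1 to 5, against 2.84, 8.07, 5.38, 4.39 and 3.75 CPM in papillae, a fall of 20.7-fold (log2 -4.37, SE 0.66, adjusted p = 0.000125). The organoid values rest on 29 counts in all. IFIT3, which stabilises IFIT1, was at 0.570, 0.369, 0.704, 0.375 and 1.28 CPM in organoids and at 1.48, 6.06, 4.51, 2.73 and 3.15 CPM in papillae, a fall of 5.39-fold (adjusted p = 0.000665). Its groups did not overlap. IFIT5, the next gene along, was at 6.71, 13.8, 8.22, 15.9 and 10.0 CPM in organoids, against 4.39, 6.46, 7.81, 6.80 and 6.43 CPM in papillae. It was called 1.71-fold higher (adjusted p = 0.0207), although the organoids of pig 1 lay inside the papilla range, and the call was lost with limma-voom (adjusted p = 0.0641). IFIT2 was at -0.75 (adjusted p = 0.144), and at -1.10 without the organoids of pig 5 (adjusted p = 0.037). IFIT genes are close copies of each other, so reads that fit several were not counted and their levels are uncertain.

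OAS enzymes make the second messenger that activates RNase L, and OAS1 and OAS2 are neighbours on chromosome 14. OAS1 (chromosome 14, 38851083 to 38867427) was at 0.163, 0.0820, 0.132, 2.28 and 0.0985 CPM in organoids of pigs 1 to 5, against 5.07, 27.0, 9.89, 13 and 6.63 CPM in papillae. The organoids of pig 4 were far above the other organoids but still below every papilla value, and 147 exon bases of OAS1 are shared with RPH3A. The fall was 21.6-fold (log2 -4.43, SE 0.94, adjusted p = 0.00142), 38.9-fold with pig as a block, 65.3-fold with limma-voom and 99.0-fold without the organoids of pig 4. OAS2, 3.39 kb away, was at 8.5, 12.6, 11.1, 44.6 and 15.8 CPM in organoids, against 20.6, 52.4, 30.6, 76.5 and 23.7 CPM in papillae. Pig 4 was high in both groups, so the ranges overlapped although each pig's organoids were below its papillae. OAS2 was not called without the block (log2 -1.14, SE 0.50, adjusted p = 0.0618), and with pig as a block its fall was called (log2 -1.23, adjusted p = 0.00213), as it was without the organoids of pig 4 (-1.75, adjusted p = 0.00223) or the papillae of pig 1 (-1.30, adjusted p = 0.0443). OASL, an OAS relative that works through RIG-I, was at 0.0341 to 0.0814 CPM in organoids, from 7 counts, and at 0.700 to 6.61 CPM in papillae. Its fall was 44.9-fold (adjusted p = 5.68e-05), or 27.5-fold without the papillae of pig 2 and 24.3-fold with limma-voom. EIF2AK2, the RNA-activated kinase PKR that halts translation, was not called (log2 -0.50, adjusted p = 0.096), and with pig as a block it was (log2 -0.57, adjusted p = 0.0435), likewise without the organoids of pig 4 (-0.67, adjusted p = 0.026). ISG20, an RNA exonuclease, was at 0.97 (adjusted p = 0.116), and at 1.22 without the organoids of pig 1 (adjusted p = 0.0362).

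Of the 7 genes whose products block virus particles or their replication machinery, 5 fell. The neighbours RSAD2 and CMPK2 on chromosome 3, 5.59 kb apart, were lowest. RSAD2 encodes viperin, which makes a chain-terminating nucleotide, and CMPK2 a mitochondrial nucleotide kinase. RSAD2 was at 0, 0.287, 0.0880, 0 and 0.0985 CPM in organoids of pigs 1 to 5, against 2.84, 8.52, 3.80, 4.01 and 4.49 CPM in papillae. The fall was 48.3-fold (log2 -5.59, SE 0.71, adjusted p = 3.55e-05), or 89.9-fold without the organoids of pig 2, and rests on 12 counts in organoids and 421 in papillae. CMPK2 was at 0.0814, 0.164, 0.0440, 0.477 and 0.164 CPM in organoids, against 5.93, 8.07, 6.70, 6.42 and 6.17 CPM in papillae. It fell 33.7-fold (log2 -5.08, SE 0.48, adjusted p = 3.96e-06), 54.2-fold without the organoids of pig 4 and 56.5-fold with limma-voom. OAS2, EIF2AK2, PARP14 and IFIT2 were also called lower with limma-voom, and OAS2 with DESeq2.

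BST2, tetherin, which holds budding virions on the cell surface, averaged 1.30 ± 0.384 CPM in organoids and 6.27 ± 1.83 CPM in papillae (SD, n = 5 each), a fall of 4.80-fold (adjusted p = 5.05e-05). The guanylate-binding proteins are GTPases that attack intracellular pathogens. GBP1 averaged 2.50 ± 0.693 CPM in organoids and 15.9 ± 5.34 CPM in papillae, 6.33-fold lower (adjusted p = 9.67e-06), and its neighbour GBP2 5.62 ± 1.61 and 10.4 ± 1.56 CPM, 1.85-fold lower (adjusted p = 0.00572). The dynamin-like MX proteins did not follow. MX1 was at 16.9, 34.8, 18, 18.8 and 20.0 CPM in organoids of pigs 1 to 5, against 16.1, 46.6, 26.5, 15.3 and 21.8 CPM in papillae. The groups overlapped almost wholly (log2 -0.22, SE 0.32, adjusted p = 0.559), and the sign turned without the papillae of pig 2 (0.15) and with library size in place of TMM (0.03). MX2 was at -0.19 (SE 0.55, adjusted p = 0.769).

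The class around ISG15 includes the ligases that attach it, the protease that removes it and several ubiquitin and ADP-ribose enzymes. Here 5 of 9 fell and 1 rose. ISG15 itself (chromosome 6, 63363201 to 63364211, with 69 exon bases under a gene on the opposite strand) was at 38.7, 11.2, 40.6, 6.51 and 84.8 CPM in organoids of pigs 1 to 5, against 12.2, 44.2, 31.8, 17.6 and 22.9 CPM in papillae. Organoids of different pigs thus spanned a wider range than papillae, on both sides of them, and ISG15 was not called (log2 0.50, SE 0.60, adjusted p = 0.478), with a value of -0.07 without the organoids of pig 5. HERC6, which attaches ISG15 in mice, was at 0.895, 1.11, 0.880, 1.09 and 0.854 CPM in organoids and at 14.8, 23.9, 24.4, 16.7 and 19.2 CPM in papillae. It had the smallest p of all members, falling 20.4-fold (log2 -4.35, SE 0.21, adjusted p = 4.46e-08). Its neighbour HERC5, the ligase for ISG15 in humans, averaged 3.23 ± 0.899 CPM in organoids and 10.9 ± 4.11 CPM in papillae (SD, n = 5 each) and fell 3.37-fold (adjusted p = 0.000269).

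USP18, the protease that removes ISG15 and also silences the interferon receptor, was at 0.692, 0.492, 0.572, 1.02 and 1.41 CPM in organoids of pigs 1 to 5, against 5.75, 16.6, 11.1, 7.31 and 6.97 CPM in papillae. The fall was 11.2-fold (log2 -3.49, SE 0.40, adjusted p = 1.71e-05), with a wide gap between the groups. TRIM25 (chromosome 12, 33184039 to 33212440), the ubiquitin ligase that activates RIG-I, moved the other way. It was at 109, 42.6, 110, 32.4 and 50.2 CPM in organoids, against 25.9, 21.5, 20.2, 19.4 and 17.6 CPM in papillae. Every organoid value was above every papilla value, those of pigs 1 and 3 by the most, and the rise was 3.28-fold (log2 1.71, SE 0.33, adjusted p = 0.000781). PARP9 and DTX3L, which act as a pair in ADP-ribosylation and ubiquitination, fell 2.72-fold and 2.98-fold (adjusted p = 0.000307 and 0.000897). They overlap by 227 exon bases on opposite strands. PARP14, in the same cluster on chromosome 13, was not called (log2 -1.16, SE 0.58, adjusted p = 0.0961) and was with pig as a block (-1.61, adjusted p = 0.0317) or without the organoids of pig 4 (-1.74, adjusted p = 0.0127). TRIM21, a cytosolic antibody receptor and ubiquitin ligase, was at -0.25 (adjusted p = 0.244).

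Of the remaining 5 induced genes 4 fell. IFI6, whose product sits in mitochondria and the endoplasmic reticulum, was at 8.75, 4.76, 11.1, 6.34 and 8.90 CPM in organoids of pigs 1 to 5, against 29.7, 53.8, 56.8, 38.7 and 63.1 CPM in papillae. It fell 6.08-fold (log2 -2.60, SE 0.27, adjusted p = 7.87e-06), with no overlap. IFI44L was at 0.407, 3.32, 1.06, 2.49 and 2.07 CPM in organoids, against 17.9, 27.0, 30.4, 21.1 and 21.2 CPM in papillae, a fall of 12.5-fold (log2 -3.65, SE 0.45, adjusted p = 2.91e-05), or 19.4-fold with limma-voom. Its neighbour IFI44 fell 8.11-fold (adjusted p = 0.000105). XAF1, a pro-apoptotic antagonist of XIAP, fell 6.52-fold (adjusted p = 0.000111), but all of its exon bases lie within C12H17orf100 on the same strand, so these reads belong to either. IFI35 averaged 21.3 ± 2.76 CPM in organoids and 21 ± 3.53 CPM in papillae (SD, n = 5 each; log2 0.02, SE 0.15, adjusted p = 0.894). No called member in this comparison changed direction under any alternative run.

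**Figure D2:**
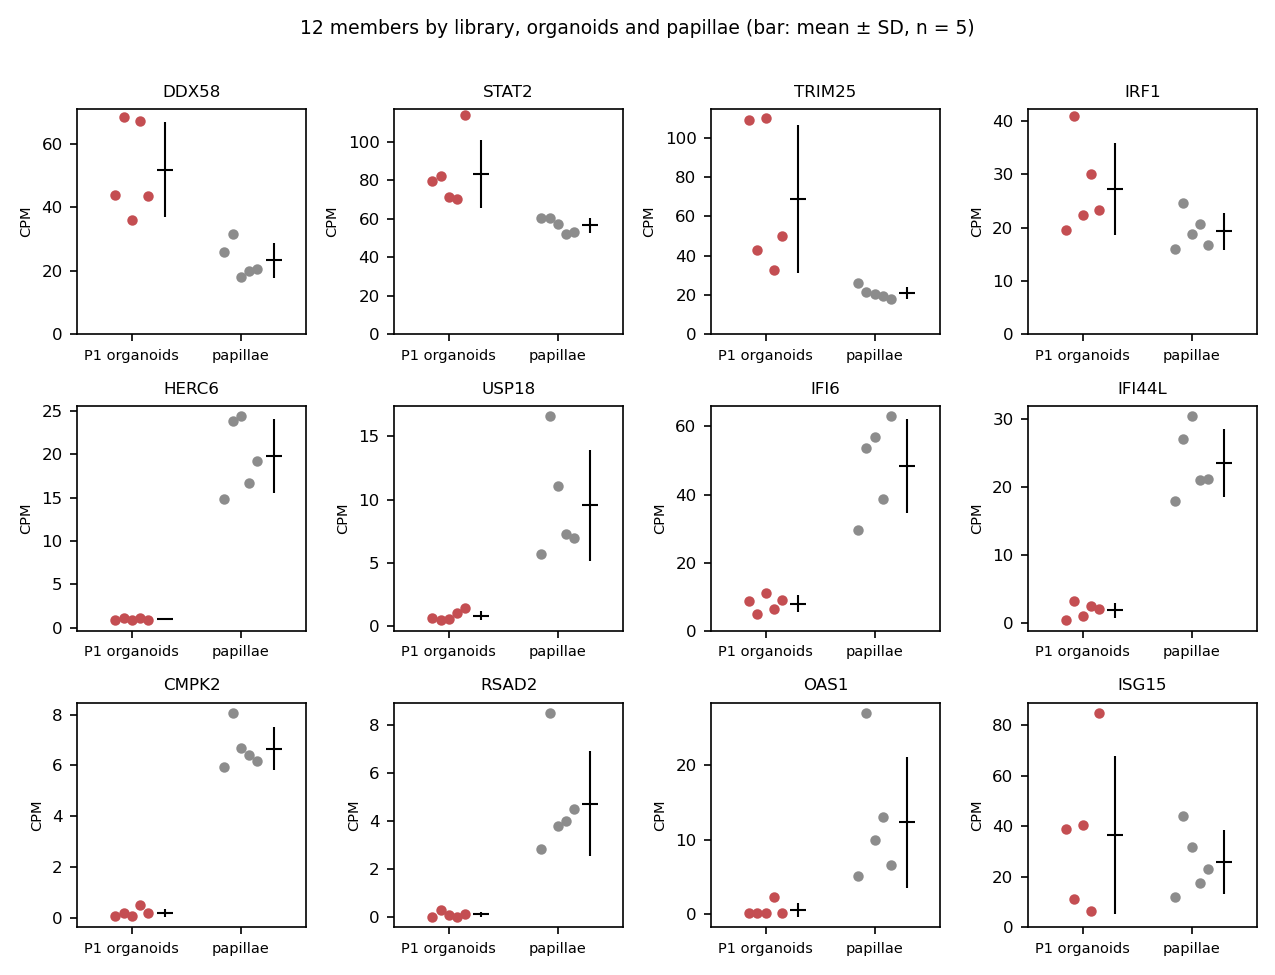
CPM of 12 members in each library of passage 1 organoids (red, left) and papillae (grey, right), with 5 points per group in the order of pigs 1 to 5 and a bar for mean ± SD. DDX58, STAT2 and TRIM25 are above the papilla points in every organoid library, HERC6, USP18, IFI6, IFI44L, CMPK2, RSAD2 and OAS1 are below them, and IRF1 and ISG15 overlap.

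Most markers of cell types that papillae hold and organoids may lack were lower in organoids, as were the members that fell. Summed over 18 leukocyte markers, levels were 41.2 to 116 CPM in organoids and 121 to 161 CPM in papillae. Of 16 leukocyte markers tested 12 fell. The macrophage markers AIF1 and CD68 rose, 3.32-fold (adjusted p = 0.000156) and 2.82-fold (adjusted p = 0.00444). PTPRC, CD3D, CD3E, MS4A1 and CD163, which define leukocytes, T cells, B cells and macrophages, were at 0 in all 5 organoid libraries. Of these, CD3D and MS4A1 were not tested. Other leukocyte markers were present and not called. CD79A had 241 counts in organoids and 234 in papillae, and CD14 averaged 8.8 CPM in organoids and 18 CPM in papillae. Endothelial markers summed to 38.7 to 142 CPM in organoids and 487 to 716 CPM in papillae, and 9 of 10 fell. Fibroblast markers summed to 0.779 to 3.12 CPM in organoids and 1850 to 6900 CPM in papillae, and 6 of 6 fell. Muscle markers summed to 0.409 to 1.56 CPM in organoids and 263 to 8000 CPM in papillae (8 of 8 fell), and nerve markers to 0.451 to 1.54 CPM in organoids and 255 to 374 CPM in papillae (6 of 6 fell). These counts of falls were largely set by the filter, since 10 of the leukocyte, 5 of the endothelial, 4 of the fibroblast, 7 of the muscle and 5 of the nerve markers that fell passed it through papillae alone. Their part in the fall of interferon-stimulated genes was not tested. Summed over the members, levels were 428 to 517 CPM in organoids and 447 to 780 CPM in papillae, and the highest sum was in the papillae of pig 2.

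Most receptor and kinase genes upstream of the members rose. Of 6 interferon receptor genes 5 rose in organoids, where 32.4% of all genes tested were called higher. IFNAR1, a subunit of the type I interferon receptor, averaged 162 ± 26.6 CPM in organoids and 19.8 ± 1.72 CPM in papillae (SD, n = 5 each), a rise of 8.21-fold (log2 3.04, SE 0.14, adjusted p = 3.02e-08). Its partner IFNAR2 averaged 51.6 ± 9.72 and 15.1 ± 1.86 CPM, 3.41-fold higher (adjusted p = 2.18e-06). IFNGR1, IFNGR2 and IL10RB were the others that rose, and IFNLR1, the specific subunit for type III interferon, was not called (log2 -0.31, SE 0.39, adjusted p = 0.49). Of 4 kinases and STATs outside the members 3 rose, with JAK1 at 1.90-fold (adjusted p = 0.000359) and STAT3 at 2.32-fold (adjusted p = 0.000122), and the kinase TYK2 fell 1.38-fold (adjusted p = 0.00404). Median log2 fold changes were 2.09 over the receptors and 0.89 over the kinases and STATs.

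**Figure D3:**
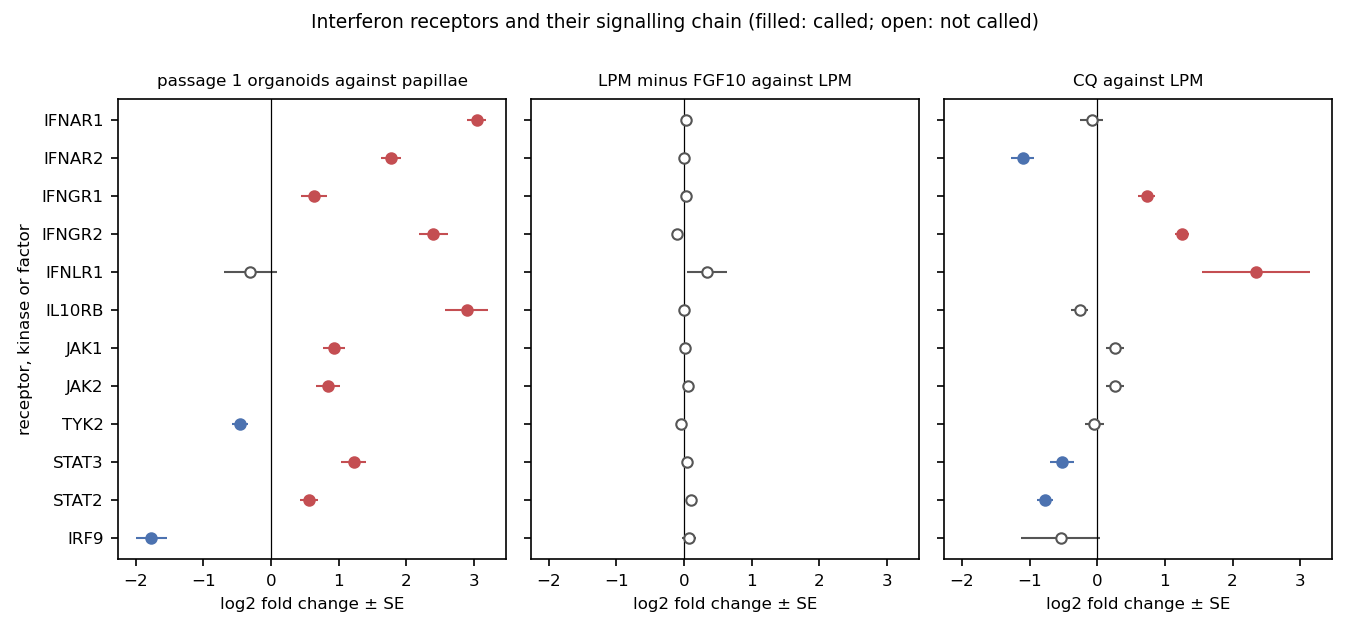
Log2 fold change ± SE of 6 interferon receptor genes, 4 kinases and STATs, and the members STAT2 and IRF9, in the 3 comparisons on the same axis. Points of the receptors lie mostly to the right of 0 in passage 1 organoids against papillae, all points lie near 0 in LPM minus FGF10 against LPM, and in CQ against LPM IFNGR1, IFNGR2 and IFNLR1 lie to the right and IFNAR2, STAT3 and STAT2 to the left.

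Counted messages of the interferons themselves were scarce. Type III interferons were not among those counted, and IFNL1 and IFNL3 were not matched by symbol. Of 34 interferon genes annotated, 22 had at least 1 count in organoids and 29 in papillae, and apart from IFNE none exceeded 53 counts over the 5 organoid libraries and 98 over the 5 papilla libraries. IFNE, an interferon that epithelia of the reproductive tract make without infection, had 386 counts in organoids and 29 in papillae. It rose 8-fold (2.74 ± 2.06 and 0.340 ± 0.166 CPM, SD, n = 5 each, adjusted p = 0.00097). IFNE passed the filter in all 5 organoid libraries but in only 1 papilla library, so it was tested because of organoids. The filter thus favoured a rise. Interferon genes are near copies of each other, so read pairs that fit several were not counted and their levels are uncertain. They also mostly lack introns. Papilla RNA had no DNase step, and the part of genomic DNA in these counts was not tested.

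Of 16 tested genes for nucleic acid sensing upstream of interferon, 4 rose and 6 fell in organoids. Over all genes tested, 32.4% were called higher and 35.1% lower, so these counts alone do not set the sensing list apart. The rises with the smallest p were IRF2, a repressor of interferon genes, at 2.39-fold (adjusted p = 6.99e-05), and TBK1, the kinase that activates IRF3, at 1.73-fold (adjusted p = 0.000826). The falls with the smallest p were IRF5 at 5.66-fold (adjusted p = 0.000106) and IRF8 at 4.36-fold (adjusted p = 0.000437), both factors of myeloid cells. Of 4 feedback genes 3 rose, with the phosphatase gene PTPN2 at 1.61-fold (adjusted p = 0.00046) and PIAS1 at 1.41-fold (adjusted p = 0.00305). A further list of interferon-stimulated genes outside the 38 was mixed too, with 7 of 25 higher and 12 lower and a median log2 fold change of -0.53. The aminopeptidase LAP3 rose 2.66-fold (adjusted p = 2.21e-06) and the scramblase PLSCR1 2.78-fold (adjusted p = 3.47e-05). IFITM1, which blocks virus fusion, fell 13.4-fold (adjusted p = 1.78e-06), and RTP4, from 12 counts in organoids and 212 in papillae, fell 24.9-fold (adjusted p = 3.65e-06). CXCL10, an interferon-induced chemokine named after its values were seen, had 0 counts in the 5 organoid libraries. It averaged 3.16 ± 0.564 CPM in papillae. Organoids were at least 140-fold lower against a floor of 3 counts over the organoid group. This floor covers counting error only, and with the organoid variance-to-mean ratio of 4.82 the bound would be smaller. RTP4 and CXCL10 passed the filter through papillae alone and so had to be lower.

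The second experiment asked what leaving FGF10 out of the medium changes. No interferon-stimulated gene was called in LPM minus FGF10 against LPM. Of the 38 members, 30 passed the filter on low counts, 0 were called higher and 0 lower, and 1.2% of 14262 genes tested were called lower and 0.582% higher, 1.78% in either direction. At an unadjusted p under 0.05 there were 4 (IFI35, IFI6, MX2 and STAT2), DESeq2 called 0 and limma-voom 1. The median log2 fold change was -0.05 over the 30 members and 0 over all genes. For 26 of the 30 the difference was under 0.3 in size, and for 26 the estimate with 2 SE on either side stayed within 1 log2 unit of 0. These libraries varied little, and the members' sums were 425 to 434 CPM without FGF10 and 428 to 445 CPM in LPM.

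IFI35, which binds the protein NMI, came nearest to a call. It was at 12.9, 13.2 and 14 CPM without FGF10, against 15.6, 16.8 and 16.5 CPM in LPM. The values did not overlap (log2 -0.29, SE 0.08, adjusted p = 0.0754), and the difference was called with no filter on low counts and with limma-voom. Without overlap between groups were also IFIH1, which was higher without FGF10, and MX2, which was lower, 1 member tested in that direction and 2 in the other, against 8.09% and 8.55% of all genes tested. MX2 differed most, at 0.998, 0.555 and 0.755 CPM without FGF10, against 1.12, 1.38 and 1.34 CPM in LPM (log2 -0.74, SE 0.31, adjusted p = 0.309), from 48 and 88 counts.

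The most abundant member per kilobase in each other role class differed little. DDX58 was at 37.8, 39.5 and 34.9 CPM without FGF10, against 36.2, 37.3 and 39.7 CPM in LPM (log2 -0.01, SE 0.06, adjusted p = 0.976). STAT2 was at 135, 123 and 140 CPM without FGF10, against 118, 122 and 130 CPM in LPM (log2 0.10, SE 0.05, adjusted p = 0.378). The ranges overlapped for both. MX1 was at 28.4, 27.6 and 28.3 CPM without FGF10 and 26.7, 28.2 and 30.5 CPM in LPM (log2 -0.02, SE 0.06, adjusted p = 0.962). ISG15 was at 11.1, 15.9 and 12.0 CPM without FGF10 and 18.6, 14.8 and 12.5 CPM in LPM (log2 -0.23, SE 0.13, adjusted p = 0.492), and IFIT5 at 9.59 ± 1.10 and 9.58 ± 0.718 CPM (SD, n = 3 each; adjusted p = 0.992).

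The 8 members that did not pass the filter were IFIT1, IFIT3, OAS1, OASL, RSAD2, CMPK2, BST2 and USP18. Each had 0 to 22 counts over the 3 libraries without FGF10 and 5 to 37 over the 3 in LPM. CMPK2 had 0 counts without FGF10, which allows up to 0.0474 CPM, and 6 in LPM. Differences in these genes were not detectable at this depth. No gene of the receptor, kinase and STAT, sensing, feedback and further interferon-stimulated lists was called either, and IFNAR1 was at 186 ± 4.61 CPM without FGF10 and 184 ± 4.75 CPM in LPM (SD, n = 3 each).

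**Figure D4:**
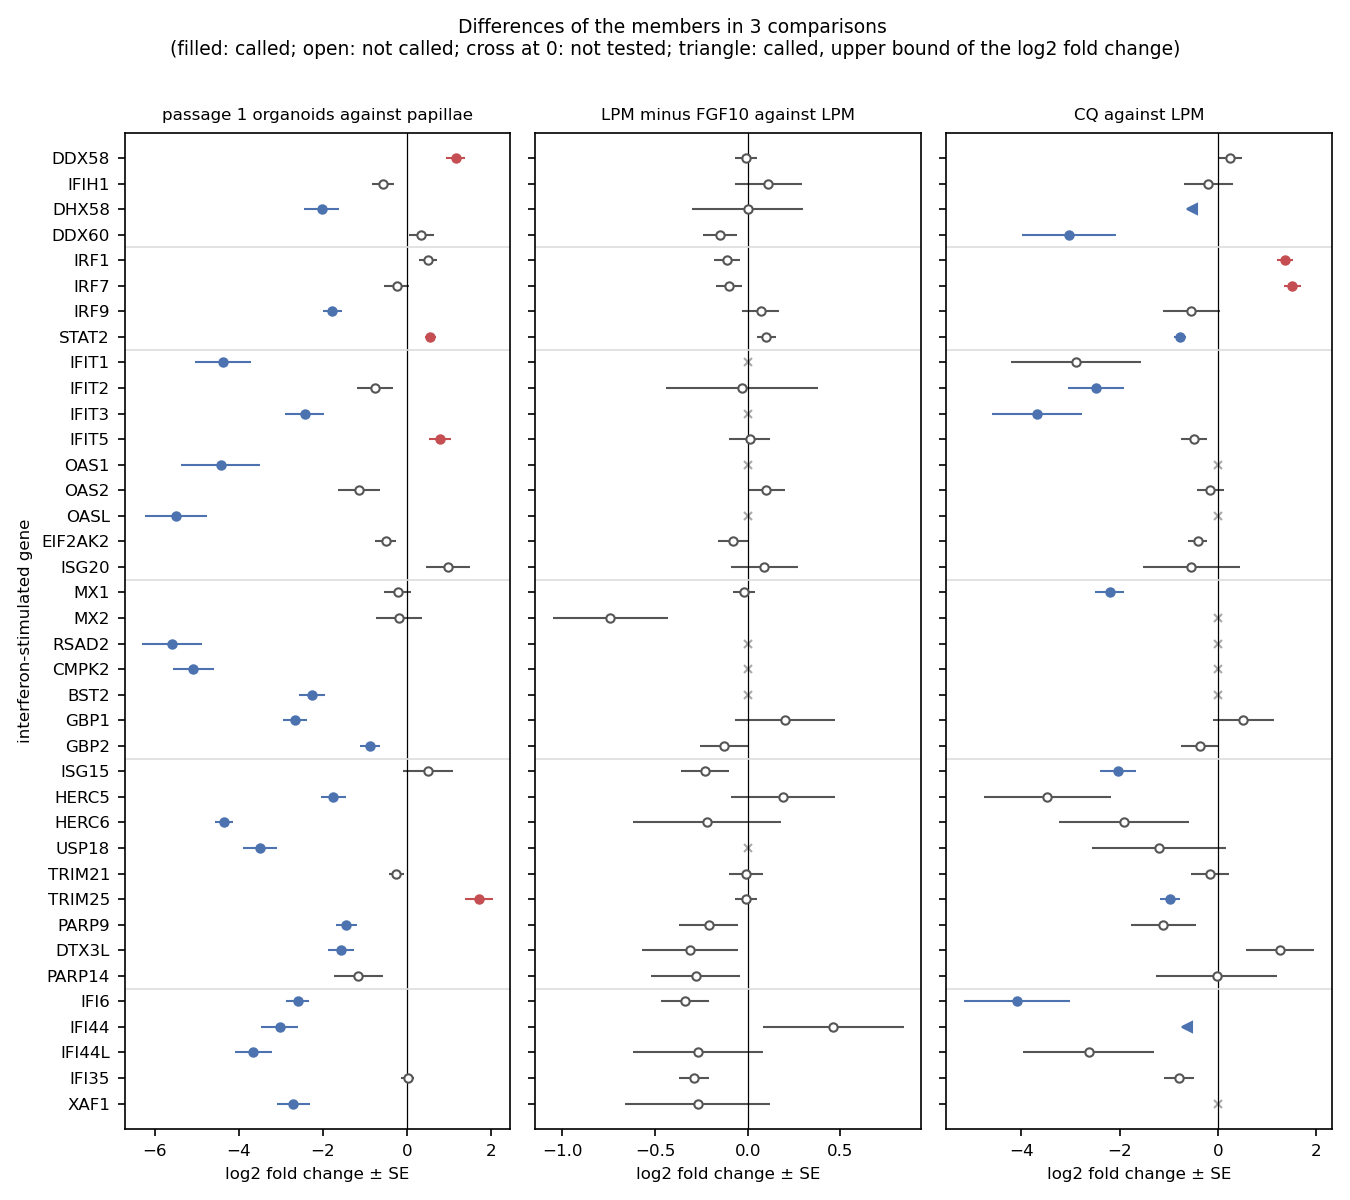
Log2 fold change ± SE of 38 members in the 3 comparisons, each panel with its own axis, filled red for called higher, filled blue for called lower, open for not called, a grey cross at 0 for not tested. Triangles for DHX58 and IFI44 in CQ against LPM mark the smallest fall their counts allow. Most members lie left of 0 in organoids against papillae, all are within 1 log2 unit of 0 in LPM minus FGF10 against LPM, and in CQ against LPM only IRF1 and IRF7 are called higher.

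The third experiment asked how organoids finished in CQ differ from organoids kept in LPM. Of the 38 members, 31 passed the filter, and 10 of these fell, 2 rose and 19 were not called in CQ. Of 13827 genes tested, 24.8% were called lower and 23.1% higher, 47.9% in either direction. The falls were of effector genes such as MX1, ISG15, IFI6, IFIT2 and IFIT3, of the sensors DHX58 and DDX60, of IFI44, STAT2 and TRIM25, and the rises were of IRF1 and IRF7. The median log2 fold change was -0.79 over the 31 members, or -0.62 with 2 members at the smallest fall their counts allow, and -0.07 over all genes tested. DHX58 and IFI44 passed the filter through LPM alone and so had to be lower. In all, 12 members passed it in all 3 LPM libraries but not in all CQ libraries, and were tested because of LPM. They were DHX58, IFI44, IFI6, IFIT2, IFIT3 and DDX60, all called lower, and IFIT1, ISG20, HERC5, HERC6, PARP14 and IFI44L, not called. The filter thus favoured falls among them. Members that had a count numbered 22 to 26 of 38 per CQ library and 37 to 38 per LPM library. Values did not overlap for 16 members that were lower and 4 that were higher, against 32.9% and 28.2% of all genes tested. The labels call the samples of the FGF10 experiment biological replicates and those of the CQ experiment only samples. Whether either were separate derivations is not said. The p-values of each measure the spread between its samples, which in the CQ experiment may be technical.

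IRF1 and IRF7, the transcription factors, rose. IRF1 (chromosome 2, 134776122 to 134783646) was at 25.3, 24.0 and 26.7 CPM in CQ, against 9.14, 9.81 and 10.5 CPM in LPM, a rise of 2.58-fold (log2 1.37, SE 0.17, adjusted p = 0.000201). IRF7, on the same chromosome at 372235 to 375572, was at 35.0, 27.3 and 30.1 CPM in CQ, against 9.45, 10.6 and 12.2 CPM in LPM, a rise of 2.86-fold (log2 1.52, SE 0.18, adjusted p = 0.000168). Both groups were tight and far apart, and both calls held under every alternative run. IRF7 was the most abundant member per kilobase in CQ at 15.1 ± 1.89 CPM per kb, and ISG15 was in LPM at 41.4 ± 8.85 CPM per kb (SD, n = 3 each). STAT2 fell, at 54.8, 54.6 and 59.8 CPM in CQ, against 105, 96.9 and 86.8 CPM in LPM (1.71-fold, log2 -0.77, SE 0.12, adjusted p = 0.000704). IRF9 was at 1.08, 7.20 and 5.37 CPM in CQ, against 5.52, 7.16 and 7.26 CPM in LPM and was not called (adjusted p = 0.47).

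Among effectors, MX1 was at 2.76, 4.88 and 2.78 CPM in CQ, against 16.9, 17.1 and 14.1 CPM in LPM. It fell 4.59-fold (log2 -2.20, SE 0.30, adjusted p = 0.00038). ISG15 was at 3.09, 5.80 and 9.67 CPM in CQ, against 20.6, 24.0 and 31.1 CPM in LPM, 4.07-fold lower (log2 -2.03, SE 0.37, adjusted p = 0.00197). The groups were apart for both genes, and both calls held under every alternative run. TRIM25 was at 13.6, 14.7 and 10.6 CPM in CQ, against 26.7, 28.4 and 21.2 CPM in LPM, 1.96-fold lower (log2 -0.97, SE 0.20, adjusted p = 0.00359).

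IFI6 was at 0, 0 and 2.40 CPM in CQ, against 12.4, 13 and 15.9 CPM in LPM. All 38 counts in CQ came from sample 3, and the call (17.0-fold, log2 -4.09, SE 1.08, adjusted p = 0.0124) was lost with DESeq2 (adjusted p = 0.121). The fold itself is set by sample 3, since the log2 fold change was -11.05 without it, with both remaining CQ libraries at 0, and the fall was 36.8-fold with the block and 89.9-fold with limma-voom. IFIT2 was at 0.471, 0.610 and 1.01 CPM in CQ, against 4.80, 4.02 and 2.96 CPM in LPM, 5.58-fold lower (adjusted p = 0.00705). IFIT3 was at 0.605, 0.366 and 0 CPM in CQ, against 4.65, 4.27 and 3.73 CPM in LPM, 12.8-fold lower (adjusted p = 0.00964) 22.3-fold lower without CQ sample 1 and 22.5-fold with limma-voom. Neither overlapped, but both calls were lost without LPM sample 1 (adjusted p = 0.07 for IFIT2 and 0.0523 for IFIT3) or LPM sample 2 (0.055 and 0.0515).

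DDX60, a helicase that supports RIG-I, was at 0.605, 0 and 1.01 CPM in CQ, against 3.98, 4.66 and 4.62 CPM in LPM, 8.15-fold lower (adjusted p = 0.0262) and 14.8-fold lower without CQ sample 3 or with limma-voom. Its call was lost without LPM sample 1, 2 or 3 (adjusted p = 0.0777, 0.1 and 0.0927). DHX58 had 0 counts in CQ and was at 1.38, 0.883 and 1.22 CPM in LPM, at least 1.43-fold lower against the CQ floor (adjusted p = 0.00402). IFI44 had 0 counts in CQ and was at 1.28, 1.91 and 0.689 CPM in LPM, at least 1.54-fold lower (adjusted p = 0.00458). OAS1, OASL, MX2, RSAD2, BST2 and XAF1 also had 0 counts in CQ, but averaged less than the CQ floor of 0.811 CPM in LPM too (0.0946 CPM for BST2 to 0.799 CPM for XAF1), so that a difference was not detectable above this floor.

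**Figure D5:**
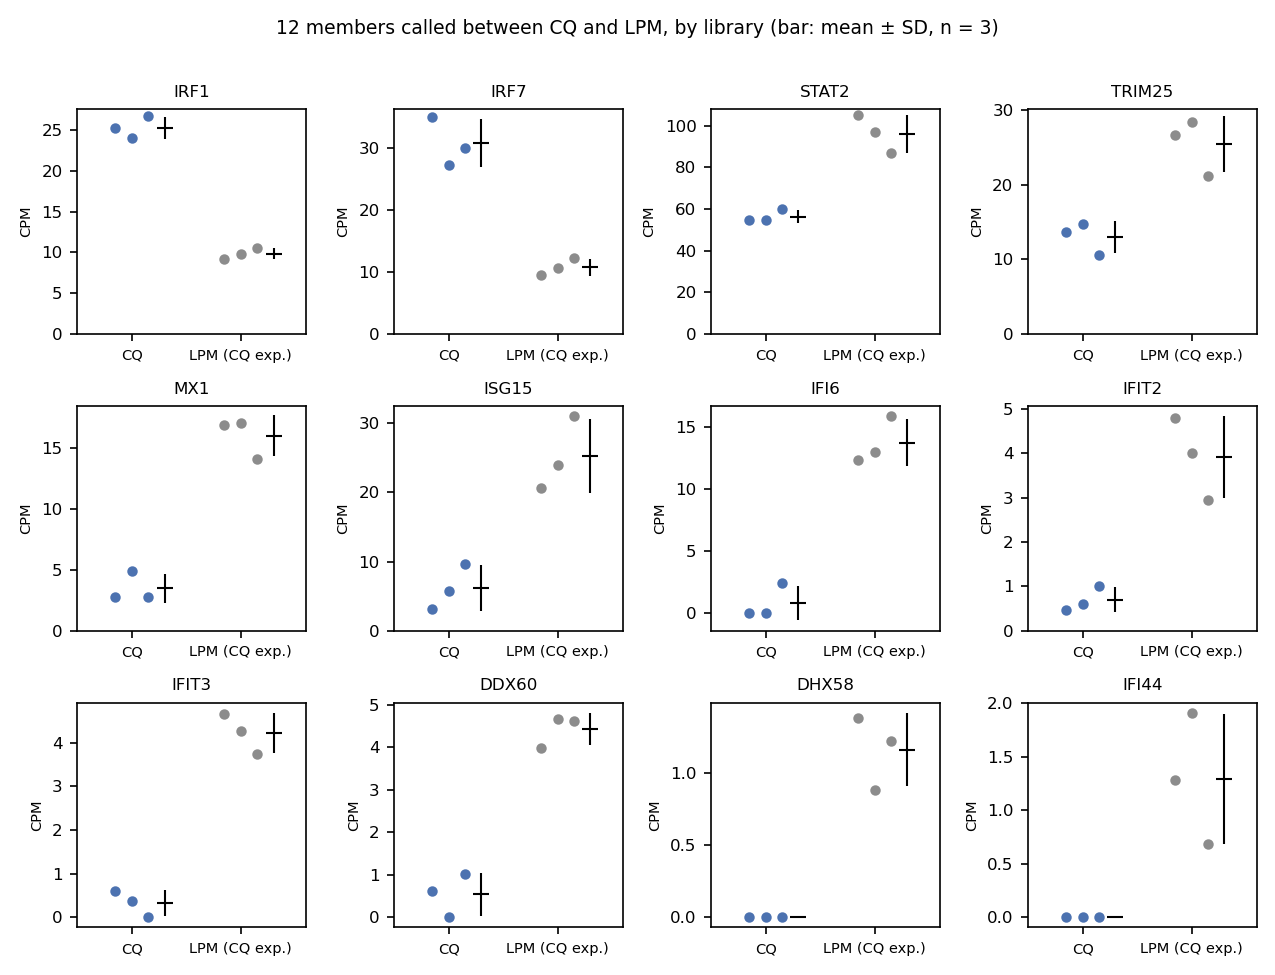
CPM of the 12 members called in the CQ experiment in each library of CQ (blue, left) and LPM (grey, right), with 3 points per group and a bar for mean ± SD. IRF1 and IRF7 are higher in every CQ library than in every LPM library, and the other 10 members are lower, with DHX58 and IFI44 at 0 in CQ.

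DDX58 was at 45.9, 22.8 and 33.7 CPM in CQ, against 30.8, 32.5 and 22.9 CPM in LPM, and IFIT5 at 15.8, 15.3 and 8.97 CPM, against 22.5, 18.8 and 14.8 CPM. Both overlapped and were not called (adjusted p = 0.451 and 0.164), but IFIT5 was called lower with limma-voom (adjusted p = 0.0408). IFIT1, HERC5 and IFI44L were called lower with limma-voom as well, and IFIT1 and HERC5 with counts per estimated molecule. Of the other 17 members not called, HERC5 and IFI35 were nearest (adjusted p = 0.052 and 0.058). IFI35 was called lower with DESeq2. HERC5 had 12 counts in CQ, all in sample 1, and was called with sample number as a block, with DESeq2 and without CQ sample 1 (adjusted p = 0.00143). Without that sample PARP9 (adjusted p = 0.0252) and IFI44L (0.00475) were called lower as well, and without CQ sample 3 IFIT1 (0.00123), HERC6 (0.00732), USP18 (0.0118) and IFI35 (0.0264) were. Members called lower numbered 16 without CQ sample 1 and 17 without CQ sample 3. These runs tested 34 members in place of 31, so some of these falls were of members not tested with all libraries. Among the untested members, MX2, RSAD2 and XAF1 passed the filter in 2 LPM libraries each and had 0 counts in CQ. Such members, once tested, had to be lower.

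Upstream of the members, 3 of 6 receptor genes rose and 1 fell in CQ. IFNGR2 averaged 325 ± 16.9 CPM in CQ and 137 ± 7.28 CPM in LPM (SD, n = 3 each; 2.37-fold higher, adjusted p = 1.36e-05), and IFNGR1, the other subunit of the receptor for interferon gamma, was 1.66-fold higher (adjusted p = 0.00148). IFNAR2 averaged 24.8 ± 4.13 CPM in CQ and 53.2 ± 7.18 CPM in LPM, 2.14-fold lower (adjusted p = 0.000789), whereas IFNAR1 was not called (159 ± 6.87 and 168 ± 40.1 CPM, adjusted p = 0.722). STAT3 was the single kinase or STAT of these 4 that was called, 1.43-fold lower (adjusted p = 0.0429). Of 15 sensing genes 3 rose and 5 fell, of which TLR7 passed the filter through CQ alone and STING1 through LPM alone. Over all genes tested in CQ, 23.1% were called higher and 24.8% lower, so these counts alone do not set the sensing list apart. The adaptor TICAM1 rose 2.21-fold (adjusted p = 0.000234) and TLR9 1.56-fold (adjusted p = 0.00328), and IRF2 fell 3.25-fold (adjusted p = 4.13e-05) and the kinase IKBKE 3.26-fold (adjusted p = 0.000345).

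Among the further interferon-stimulated genes 4 of 21 rose and 4 fell, of which IFITM1 passed the filter through LPM alone. Both shares were below the 23.1% and 24.8% of all genes tested that were called higher and lower. IFITM3, which blocks virus entry at endosomes, had the smallest p and averaged 12.1 ± 4.19 CPM in CQ and 245 ± 17.6 CPM in LPM, 20.3-fold lower (SD, n = 3 each; adjusted p = 1.42e-06). LAP3 fell 1.89-fold (adjusted p = 0.000277), while TDRD7 rose 5.60-fold (adjusted p = 7.47e-05) and TRIM56 2.59-fold (adjusted p = 0.000165). IFNE had 202 counts in CQ and 598 in LPM and was not called (log2 -1.14, SE 0.51, adjusted p = 0.0927). Of 5 leukocyte markers tested, CD68, AIF1 and CD14 were called lower and CD79A and CSF1R higher. CD14 passed the filter through LPM alone and CSF1R through CQ alone. The list summed to 33.2 to 46.9 CPM in CQ and 71.8 to 93.5 CPM in LPM, with CD3E, MS4A1, CD163 and TYROBP at 0 in both groups, and endothelial markers to 8.61 to 10.7 CPM in CQ and 32.6 to 39.4 CPM in LPM. Epithelial markers summed to 6230 to 6610 CPM in CQ and 6230 to 6600 CPM in LPM, where 4 of 7 fell and 1 rose. Their part in the result was not tested.

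Set side by side, 4 members (DHX58, IFIT3, IFI6 and IFI44) were called lower both in passage 1 organoids against papillae and in CQ against LPM. In CQ, however, DHX58 and IFI44 passed the filter through LPM alone and had to be lower, the call of IFIT3 was lost without LPM sample 1 or 2, and that of IFI6 with DESeq2. IFIT3 and IFI6 passed the filter in 1 CQ library each and in all 3 LPM libraries. In the first experiment IFIT3 and IFI44 passed it in 3 organoid libraries each and in all 5 papilla libraries. STAT2 and TRIM25 rose in passage 1 organoids against papillae and fell in CQ against LPM. IRF1 and IRF7 rose in CQ and were not called in organoids against papillae, although IRF1 was called higher there with pig as a block, and DDX60, IFIT2, ISG15 and MX1 fell in CQ and were not called in organoids against papillae. The difference between the 2 comparisons was not tested, and they come from separately scaled experiments.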

How the data were processed

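RNA sequencing of 22 pig libraries in 6 groups was analysed. The deposited values are unnormalized counts: the authors counted read pairs over the exons of each gene with featureCounts 2.0.3 (16 libraries) or 2.0.6 (6 libraries of the CQ experiment) per the file headers. Per the file headers strand was ignored, multi-mapping pairs were dropped, and a pair lying over several genes was given to all of them. STAR 2.7.10b, DESeq2, MultiQC 1.14 and FastQC 0.11.9 are also named, per the submitters' processing notes. Libraries were poly-A selected, per the labels' protocols. Gene positions are those of the files and equal Sscrofa11.1 in RefSeq for 26853 of 26862 matched symbols, and for 29757 of 29850 in the CQ experiment, where an entry without a gene name (0.326 to 0.477% of counts) was left out.

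For each comparison its 2 groups entered a separate fit in R 4.3.3. Counts were TMM-scaled, low genes removed by filterByExpr (minimum count 10), and the edgeR 4.0.16 quasi-likelihood F test applied, with p adjusted by Benjamini-Hochberg across every gene that passed. The threshold was an adjusted p under 0.05. All adjusted p-values given are from this fit unless another is named. Fits were tested on simulated data in which 33 or 34 genes were changed at each fold. In organoids against papillae 11.8% of 1.5-fold rises and 97% of 4-fold rises were recovered. Of falls, 0% of those to 0.667-fold and 45.5% of those to 0.5-fold were recovered, and 7.76% of calls were false. In CQ these shares were, in the same order, 11.8%, 97%, 12.1%, 45.5% and 5.17%. In the FGF10 experiment they were 100% for each fold and 5.66%. Members not called in organoids or CQ may thus still differ by such small amounts. Far more genes were called in organoids and CQ than were changed in the simulation, so its shares need not hold for the members. Alternatives tried were DESeq2 1.42.0, limma-voom 3.58.1 with quality weights, library size alone, no filter, a replicate block, leaving out each library, and, for CQ, counts divided by 12.73, an estimate of reads per molecule from their spread. Pig numbers pair organoids and papillae by animal, per the labels (same-pig correlations of deviations 0.03 to 0.09). A group at 0 counts was given a floor of 3 counts, which covers counting error only, multiplied in CQ by 12.73.

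The members and gene lists were chosen with earlier results of these data known. Per comparison, values are given for each called member and for the tested member with the highest level per kilobase in each of 6 role classes, and further members are named where another fit or a left-out library changes their call. Context lists are described by counts and up to 2 called genes per direction with the smallest p. A gene of the kinase and STAT list is not reported here.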

Additional observations from a re-analysis of the deposited data

Results flagged for a closer look

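In 54 groups of 5 libraries (27 named members in passage 1 organoids and in papillae), 7 held a library far from the other 4 by Dixon's criterion (a gap to the nearest value over 0.71 of the range). Chance flags about 1 in 20 such groups.

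Pig 4 accounted for 4 of these, all in organoids. Its organoids had 2.28 CPM of OAS1, against 0.0820 to 0.163 CPM in the other organoids, 44.6 CPM of OAS2, against 8.5 to 15.8 CPM, and 0.477 CPM of CMPK2, against 0.0440 to 0.164 CPM. They had the lowest IRF9, at 5.56 CPM, against 10.6 to 12.5 CPM.

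The organoids of pig 2 stood out with 34.8 CPM of MX1, against 16.9 to 20.0 CPM, and those of pig 5 with 114 CPM of STAT2, against 70.3 to 82.3 CPM. In papillae, pig 2 stood out with 12.0 CPM of DHX58, against 3.50 to 4.56 CPM in the other 4.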

How the results depend on the processing

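Of 36 called values of single members, 5 lost their call under some alternative (IFIT5 in organoids, and DDX60, IFIT2, IFIT3 and IFI6 in CQ, all with values above) and none reversed. Scaling organoids and papillae by library size in place of TMM put the log2 median over all genes at 0.28 in place of -0.01, and the share of rises among called genes at 59.6% instead of 48.0%, and members called were 5 higher and 20 lower. With the replicate block members were 5 higher and 23 lower in organoids, 0 without FGF10, and 2 higher and 11 lower in CQ, and the block changed no other call among them. In the FGF10 and CQ experiments samples of the same number had correlations of -0.06 to 0.08. Organoids and papillae of the same pig had 0.03 to 0.09. The check thus cannot tell whether the numbers pair samples in those 2 experiments.

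Without FGF10, genes called numbered 254, 429 with no filter, and 125 to 294 when leaving out 1 library (128 without LPM minus FGF10 sample 1, 125 without LPM sample 2), and members called lower numbered 1 with no filter and 1 with limma-voom. In CQ, members called lower ranged from 7 to 17 when leaving out 1 library, with 31 to 34 members tested. With counts per estimated molecule 27 members were tested, 2 higher and 10 lower. Of these IFIT1 and HERC5 were added, while DHX58 and IFI44 were not tested. Reversed signs, all of values not called, were those of MX1 in organoids (0.03 with library size alone, 0.15 without papilla 2), ISG15 (-0.07 without organoid 5), DDX58 without FGF10 (0.01 with library size alone, 0.04 without LPM minus FGF10 sample 3, 0.03 without LPM sample 3) and in CQ (-0.04 without CQ sample 1), IFIT5 without FGF10 (-0.04 with limma-voom, 0 with the block, -0.05 and -0.03 without LPM minus FGF10 samples 2 and 3, -0.06 without LPM sample 1), and MX1 without FGF10 (0.03 without LPM sample 3). Leaving out 1 library at a time, these values ranged from -0.44 to 0.15 for MX1 and -0.07 to 0.8 for ISG15 in organoids, from -0.05 to 0.04 for DDX58, -0.06 to 0.1 for IFIT5 and -0.06 to 0.03 for MX1 without FGF10, and from -0.04 to 0.45 for DDX58 in CQ. The cause was not tested. A group at 0 counts in CQ may hold up to 0.811 CPM, a floor of 3 counts multiplied by the variance-to-mean ratio of these libraries.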

Other observations

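Organoids of pigs 1 and 3 shared a pattern across several members. They had the most TRIM25 (109 and 110 CPM, against 32.4 to 50.2 CPM in the organoids of pigs 2, 4 and 5) and IRF7 (26.9 and 30.8 CPM, against 9.44 to 14.6 CPM). They had the least PARP14 (0.488 and 0.836 CPM, against 2.10 to 6.20 CPM), ISG20 (0.610 and 0.924 CPM, against 2.43 to 3.92 CPM), IFIT5 (6.71 and 8.22 CPM, against 10.0 to 15.9 CPM) and IFI44 (0.407 and 0.308 CPM, against 1.06 to 1.23 CPM). These members and libraries were picked after their values were seen.

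Levels of several members in LPM, IFIT1 and IFIT3 among them, did not overlap between the CQ experiment and the others. IFIT1 was at 0 to 0.572 CPM in passage 1 organoids, 0.120 to 0.479 CPM in the LPM libraries of the FGF10 experiment and 2.81 to 3.37 CPM in those of the CQ experiment. IFIT3 was at 0.369 to 1.28, 0.301 to 0.803 and 3.73 to 4.65 CPM in the same order. IFIT2 was at 0.285 to 2.04, 0.344 to 0.767 and 2.96 to 4.8 CPM. The other way went IRF1 (19.5 to 41, 18 to 19.2 and 9.14 to 10.5 CPM), TRIM25 (32.4 to 110, 52.5 to 57.7 and 21.2 to 28.4 CPM) and DDX60 (5.62 to 14.2, 14.2 to 15.1 and 3.98 to 4.66 CPM). The CQ calls of IFIT2, IFIT3, IRF1, TRIM25 and DDX60 were made against these LPM levels. These members were picked after their values were seen. The 3 sets were scaled separately, and the differences were not tested.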
